A study of Rattus norvegicus with 24 samples.

Results

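The CpG-dense share of the rat kidney methylome was examined as 43528 autosomal CpGs measured by reduced representation bisulfite sequencing (RRBS). A CpG was included when it had at least 10 reads in all 12 libraries and 8 or more other such CpGs lay within 100 bases on its strand. These dense CpGs were 10.99% of the 396151 autosomal CpGs with that coverage, and 404069 CpGs with that coverage were tested when the X chromosome was included. All CpGs with that coverage were joined into runs over gaps of at most 100 bases, and a run with any dense CpG was taken as a cluster. This gave 4548 clusters of 9 to 56 covered CpGs, with a median of 11 CpGs and a median span of 113 bases. The clusters held 54967 CpGs, so part of the CpGs in them were not dense themselves.

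Kidney DNA came from 12 female rats about 6 to 8 weeks old, with 3 rats in each of 4 groups. CD-NP and CD-P18 were non-pregnant and day 18 pregnant Sprague Dawley (CD) rats, an outbred stock, and BN-NP and BN-P18 were the same stages of the inbred Brown Norway (BN) strain. The sections held both cortex and medulla, so each level is an average over all cell types of the kidney. Summed over CpGs, the libraries held 21669162 (CD-NP rat 3) to 44738436 (BN-NP rat 3) reads of CpGs, and the median coverage of the dense CpGs was 15 to 30 reads per library.

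DNA methylation in mammals is placed mainly on the cytosine of CpG pairs. Most CpGs of the genome are isolated and methylated, whereas stretches rich in CpGs, called CpG islands, often lie at gene starts and are usually free of methylation. RRBS enriches such stretches because it sequences fragments cut at CCGG sites, and bisulfite turns unmethylated cytosines into thymines in the reads. A C-to-T variant in the DNA therefore also reads as an unmethylated cytosine, and the reads were placed on a genome (Rnor_6.0) that comes from the BN strain.

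To show what a dense cluster looks like, sequence was taken from RefSeq promoter windows (assembly GRCr8). A cluster was paired with a window when 9 covered CpGs in a row had the same spacing as 9 CpGs in a row of a window on the same chromosome. This paired 489 of the 4548 clusters with 517 genes, in nearly the same order along each chromosome as in Rnor_6.0 (rank correlation 0.95 to 1), and 11 clusters matched a window on another chromosome. The 5 stretches below, out of 321 eligible clusters with 5 or more CpGs before the start of 1 gene only, end at or before that start and were chosen after their values were seen: 2 of those with most measured CpGs (Ythdf1 and Drg1) and 3 of those with the highest level. Capitals mark the CpGs measured in the kidneys, which sit closely together, and lower case marks all other bases.
Ythdf1 (chr3:188417741-188417990, minus strand): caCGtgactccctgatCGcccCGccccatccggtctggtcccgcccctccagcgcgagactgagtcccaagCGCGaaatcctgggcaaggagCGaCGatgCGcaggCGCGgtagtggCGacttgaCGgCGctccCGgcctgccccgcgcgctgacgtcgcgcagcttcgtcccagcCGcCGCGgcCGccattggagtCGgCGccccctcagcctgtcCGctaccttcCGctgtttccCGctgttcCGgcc
Drg1 (chr14:82344383-82344574, minus strand): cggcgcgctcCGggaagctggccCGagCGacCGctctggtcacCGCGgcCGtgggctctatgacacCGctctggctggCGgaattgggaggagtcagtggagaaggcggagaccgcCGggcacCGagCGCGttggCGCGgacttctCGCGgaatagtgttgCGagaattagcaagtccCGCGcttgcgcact
Ddx43 (chr8:88135787-88135872, plus strand): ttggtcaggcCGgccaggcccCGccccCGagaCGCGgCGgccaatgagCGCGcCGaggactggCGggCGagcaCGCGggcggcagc
Tra2b (chr11:92293287-92293441, plus strand): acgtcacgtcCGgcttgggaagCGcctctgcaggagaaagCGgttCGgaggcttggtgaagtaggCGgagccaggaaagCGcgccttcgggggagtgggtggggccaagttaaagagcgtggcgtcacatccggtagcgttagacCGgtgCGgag
LOC134480864 (chr10:82991311-82991351, minus strand): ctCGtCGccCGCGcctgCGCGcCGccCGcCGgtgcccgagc

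The first 4 of these clusters had low levels and the fifth did not. The cluster of Ythdf1, which encodes a reader of methylated RNA, was at 0.147% in the mean of the 12 rats, and none of its CpGs was above 0.712% in that mean. The cluster of Drg1, which encodes a GTP-binding protein, was at 0.233%. The cluster of Ddx43, which encodes an RNA helicase known from the germ line, was at 8.19%, between 5.08 and 11.9% in single rats. That of Tra2b, which encodes a splicing regulator, was at 4.88%. The cluster of LOC134480864 was at 45.5% and ranged from 31.9 to 59.9% between rats.

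Dense CpGs were nearly unmethylated in every rat. Their mean level was 3.31, 3.26 and 3.10% in the CD-NP rats, and 2.99, 3.12 and 3.02% in the CD-P18 rats. It was 3.11, 3.08 and 3.22% in the BN-NP rats, and 3.21, 3.14 and 3.22% in the BN-P18 rats. In CD rats the mean was 3.22% ± 0.107 (SD, n = 3) in the non-pregnant group and 3.04% ± 0.0673 in the day 18 group. In BN rats it was 3.14% ± 0.0740 and 3.19% ± 0.0414, and no test was run on these means.

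The level fell with the number of covered neighbours. CpGs with no other covered CpG within 100 bases averaged 71.9% (46691 CpGs), those with 1 to 3 others 59.2% (203095 CpGs) and those with 4 to 7 others 20.95% (102837 CpGs), against 3.15% for the dense CpGs. On either side of the rule's limit the step was small, with 6.90% for the 17402 CpGs that had exactly 7 others and 4.89% for the 13248 that had exactly 8. The share of CpGs at or above 90% was 33.1% without covered neighbours and 1.17% among dense CpGs.

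**Figure D1:**
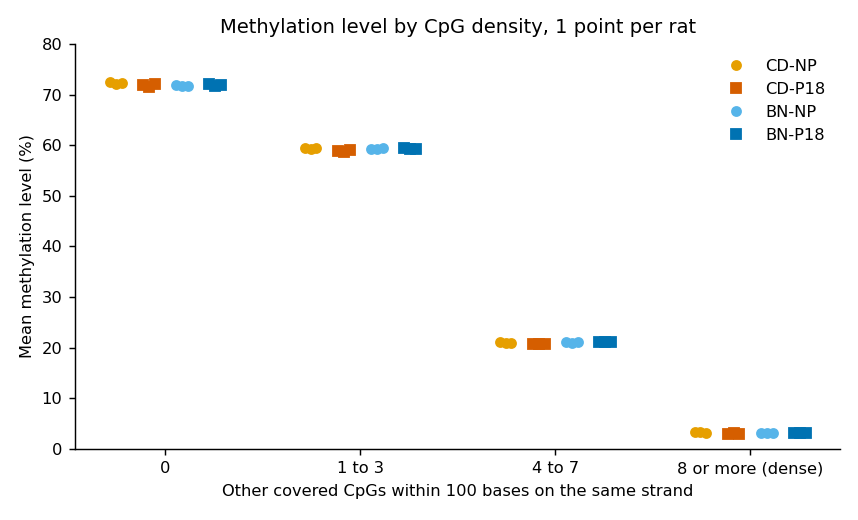
Mean methylation level (%, y axis) of autosomal CpGs grouped by the number of other covered CpGs within 100 bases on the same strand (x axis), with 1 point per rat and colours for the 4 groups. The 12 rats lie almost on top of each other within a class, at 71.5 to 72.4% without neighbours and at 2.99 to 3.31% in the dense class.

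Most dense CpGs were at or close to 0. A total of 11704 of them (26.9%) had no methylated read in any of the 12 rats, with a median of 270 reads over the rats together, and 74.7% were at or below 1%. Between 10 and 90% there were 1541 dense CpGs (3.54%), and 510 (1.17%) were at or above 90%. By chromosome, the mean level of dense CpGs ran from 1.54% on chromosome 8 to 6.20% on chromosome 20, where dense CpGs were also the smallest share of those tested (7.80%).

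Clusters fell into a large unmethylated set and a small methylated one. Of the 4548 clusters, 3478 (76.5%) were at or below 1% and 786 between 1 and 10%. The others were spread out, with 100 clusters at 10 to 30%, 66 at 30 to 70%, 46 at 70 to 90% and 72 above 90%. The clusters paired with promoter windows were almost all in the unmethylated set: 487 of the 489 were at or below 10%, with a median of 0.398%, and none was above 90%. Among the 4059 clusters without a paired window, 282 (6.95%) were above 10%. Those clusters include promoters that the spacing could not match, so they are not a set of clusters away from genes.

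**Figure D2:**
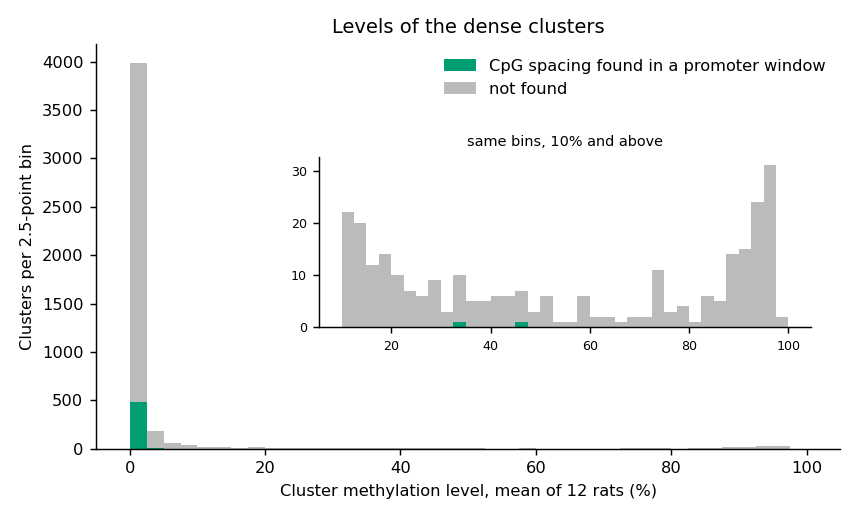
Number of dense clusters (y axis) by methylation level, as the mean of the 12 rats (%, x axis), with clusters paired with a promoter window in green and all others in grey; the inset repeats the bins from 10% up on its own scale. Most clusters stand in the first bin, and a second, small group of 72 clusters lies above 90%.

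Along the 412 genes whose clusters were paired with a single gene, the level was lowest close to the gene start. It was 0.523% for 1831 dense CpGs 150 to 51 bases before the start and 0.525% for 1266 CpGs in the last 50 bases before it. It was 0.666% for 751 CpGs in the first 50 bases after the start, and 1.44% for 1070 CpGs that lay further than 150 bases before it. Of those 1070 CpGs, 24 were at or above 10%. The only 2 paired clusters above 10%, LOC134480864 (45.5%) and LOC130014439 (33.8%), had CpGs in that stretch. Its mean without these 2 clusters was not computed, so the higher value there may not hold for the other genes. The 4 groups were alike there, for example 0.498% ± 0.0830 (SD, n = 3) in CD-NP and 0.547% ± 0.120 in BN-NP for the last 50 bases before the start. Matched windows held a median of 31 CpGs against 7 over all 33469 windows, and 44.3% of all windows had the 9 CpGs that a match needs.

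The clusters with the most members included 2 promoters of developmental genes. The largest (chr7:99522007-99522750 in Rnor_6.0, minus strand, 56 CpGs, about 72.3 reads per CpG) was at 9.0% and varied between rats from 2.20 to 16.8%. The next (chr3:61604285-61604722, 37 CpGs) was paired with Hoxd11, a homeobox gene of body-axis patterning, and was at 1.33%. The third (chr8:77639710-77640146, 38 CpGs) was paired with Aldh1a2, which encodes an enzyme of retinoic acid synthesis, and was at 1.26%. The others, at chr2:128818136-128818647 and chr9:92834364-92834679, were at 7.14 and 0.398%. None of these 5 was called in any comparison described below.

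Most clusters above 90% were steady between rats (mean SD 1.69 points), and intermediate clusters were not uniform along their length. The 3 clusters above 90% with most members, at chr14:16646089-16646233, chr1:84573505-84573694 and chr10:15213361-15213512, were at 93.5, 96.5 and 90.4%. The second of them stayed between 95.5 and 97.5% in all 12 rats, whereas the third was at 92.0 to 95.7% in CD and 79.0 to 90.04% in BN rats and held 1 called CpG at each stage but was not called as a cluster (limma-moderated adjusted p = 1). Of the 66 clusters at 30 to 70%, only 12 had all their CpGs within 20 points of each other, and 10 had CpGs over 50 points apart. Besides one described below, the intermediate clusters with most members lay at chr9:7466927-7467120 (37.1%, 24.0 to 52.9% between rats) and chr1:147021359-147021708 (33.9%, 29.7 to 41.4%). In the second of these the groups were at 33.4% ± 2.70, 31.8% ± 2.0, 33.8% ± 3.05 and 36.5% ± 4.55 (CD-NP, CD-P18, BN-NP and BN-P18, SD, n = 3).

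The SD between the rats of a group, which includes counting error, depended on the level more than on density. Below 10%, the SD over 3 rats averaged 0.911 to 1.03 points in the 4 groups for dense CpGs and 1.29 to 1.44 points for the other autosomal CpGs. Between 10 and 90%, it averaged 8.93 (CD-NP), 7.72 (CD-P18), 7.16 (BN-NP) and 8.79 points (BN-P18) for the 1535 dense CpGs, and 8.97, 7.61, 7.20 and 8.10 points for the 148017 others. The spread in that range was also measured as a dispersion, whose mean, rather than its median, is 1 where counting error alone acts. Its median was 1.17 for dense CpGs and 0.995 for others. The mean dispersion was 3.87 and 1.15, and 1.39 for dense CpGs without clusters over 10 times the median coverage. The 5 libraries with the fewest reads belonged to CD-NP and BN-P18, the groups with the larger SD, and the part of depth in the spread was not tested. The clusters with the largest SD lay at chr7:12264279-12264343 (15.4 points, about 15.1 reads per CpG), chr1:11910989-11911131 (11.6 points) and chr14:46655621-46655690 (11.1 points, about 860 reads per CpG).

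Neighbouring dense CpGs moved together. Among pairs in which at least 1 CpG was between 10 and 90%, the median difference in level was 5.79 points up to 20 bases apart (3068 pairs) and 8.43 points at 51 to 100 bases (1873 pairs). The difference between strains in non-pregnant rats correlated between the 2 CpGs of a pair with r = 0.75 up to 20 bases and r = 0.73 at 51 to 100 bases. The pregnancy difference in CD rats did so with r = 0.58 and r = 0.26. These are descriptions over pairs that share reads as well as DNA: close CpGs differed in coverage by a median of 3.75%, and far ones by 26.7%. Of the dense CpGs, 16.2% were also tested on the other strand, and the levels of the 1695 CpGs that were dense on both strands differed by a median of 0.463 points.

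Pregnancy was then compared within each strain, by a logistic model per CpG with a dispersion moderated across CpGs by limma. A CpG was called a differentially methylated CpG (DMC) at a Benjamini-Hochberg adjusted p under 0.05 over all 404069 CpGs and a difference of over 10 points. In CD rats, 1 dense CpG was called, against 0.0483% of all CpGs tested. In BN rats, 0 dense CpGs were called, against 0.000247% of all. At an unadjusted p under 0.05, limma-moderated counts were 480 dense CpGs in CD (1.10%, against 3.35% of all CpGs) and 569 in BN (1.31%, against 3.52%). The median absolute difference of dense CpGs was 0.336 points in CD and 0.326 points in BN, against 1.98 and 1.93 points for all CpGs tested.

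The single pregnancy call lay at chr16:60944800 (plus strand), in a cluster of 9 CpGs that was otherwise methylated. It read 56.2, 43.8 and 0% in the CD-NP rats and 0% in all 3 CD-P18 rats, on 16 to 22 reads each. The Wilson 95% confidence intervals, which cover counting error only, were 33.2 to 76.9% and 23.1 to 66.8% for the first 2 rats and reached at most 16.8% in the rats at 0. The BN rats read 94.7 to 100%. The difference between CD-P18 and CD-NP was -31.4 points (limma-moderated adjusted p = 0.038), but one of the CD-NP rats was at the CD-P18 value. The call was lost without CD-NP replicate 1 or 2 or without any 1 of the CD-P18 rats. The 8 other CpGs of the cluster were at 97.2 to 99.1% in the mean of all rats, and none of them moved by more than 6.25 points with pregnancy in CD rats; a variant at this base was not tested.

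Whole clusters were compared in the same way, on the reads of each run of CpGs averaged over its CpGs, with 143803 runs tested. Pregnancy gave 0 called dense clusters in CD rats (0% of all runs) and 0 in BN rats (0% of all runs). At an unadjusted p under 0.05 the limma-moderated counts were 8 clusters in CD (0.176%, against 1.80% of all runs) and 1 in BN (0.022%, against 1.54%). Fits with reads summed over CpGs and with no overdispersion also called 0 in both strains.

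Strain differences were few but could be large. In non-pregnant rats, 145 dense CpGs differed between BN and CD, which was 0.333% of the dense CpGs against 0.592% of all CpGs tested. Of these, 54 were higher and 91 lower in BN, that is 0.124 and 0.209% of dense CpGs, against 0.467 and 0.125% of all CpGs. In pregnant rats, 149 dense CpGs differed (0.342%, against 0.555% of all), 74 higher (0.170%, against 0.456%) and 75 lower (0.172%, against 0.0995%). These shares do not compare CpGs at like levels. Of the dense CpGs, 95.3% were at or below 10%, and 26.9% had no methylated read in any rat and could not be called. Both stages used different rats. At both stages 115 dense CpGs were called, 79.3% of the non-pregnant and 77.2% of the pregnant calls, and all 115 had the same direction; over all CpGs tested the shares were 65.8 and 70.2%.

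Of the called dense CpGs, 139 in non-pregnant and 137 in pregnant rats had a level between 10 and 90% over all rats. In that range 9.06 and 8.93% of the dense CpGs were called, against 1.45 and 1.37% of the other autosomal CpGs. Without clusters over 10 times the median coverage, 4.82 and 4.88% of the dense CpGs there were called. A strain difference by itself moves a CpG near 0 into that range, so these rates are only described. Coverage moved with the calls. A set of 18 clusters had over 10 times the median cluster coverage of 22.8 reads per CpG (237 to 1857 reads); it held 0.416% of the dense CpGs but 71 of the 145 and 70 of the 149 calls. Without these clusters, chosen after the values were seen, 74 and 79 calls remained, in which 33 and 54 CpGs were higher in BN. Of the remaining calls, 48 were made at both stages, 64.9% of the non-pregnant and 60.8% of the pregnant ones. These shares were not above the 65.8 and 70.2% of all CpGs tested.

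**Figure D3:**
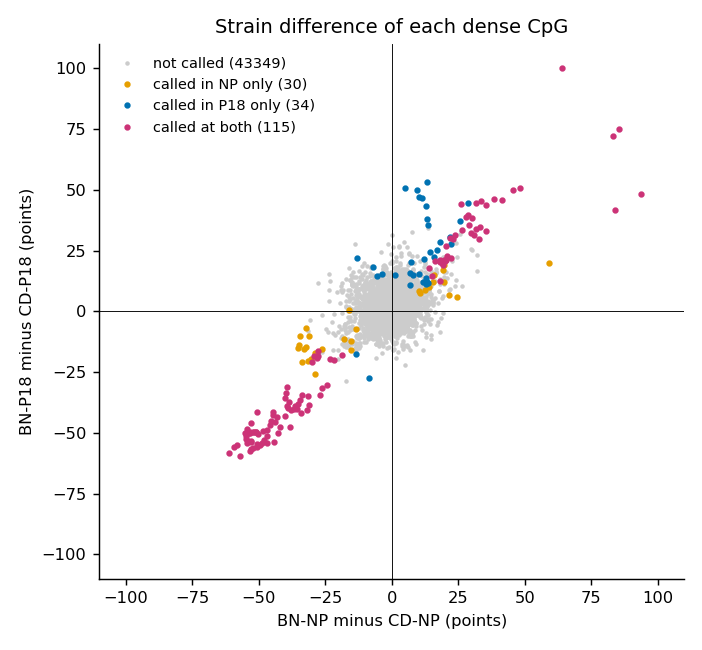
Difference between strains for each of the 43528 dense CpGs, BN-NP minus CD-NP (points of methylation, x axis) against BN-P18 minus CD-P18 (y axis), coloured by the stages at which the CpG was called. The 115 CpGs called at both stages lie at the lower left and the upper right, and the CpGs called at neither fill the centre.

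Among dense clusters, 7 differed between strains in non-pregnant rats, and the same 7 in pregnant rats. They were read against 0.232 and 0.214% of all runs called, respectively, and 5 were lower and 2 higher in BN at both stages. That balance depended on the fit: with reads summed over CpGs, 12 of 22 called clusters in non-pregnant and 18 of 24 in pregnant rats were higher in BN, and with no overdispersion 6 of 15 and 8 of 15 were. The 5 lower clusters all lay within 2 kb of chromosome 1, on both strands. In the first of them by p (chr1:11910023-11910176, plus strand, 25 CpGs), the CD-NP rats were at 67.0, 59.7 and 50.3% and the CD-P18 rats at 53.3, 74.4 and 54.8%. The BN-NP rats were at 17.3, 14.0 and 20.8% and the BN-P18 rats at 17.1, 4.67 and 33.4%. All CD rats stood above all BN rats. The difference was -41.8 points in non-pregnant rats (limma-moderated adjusted p = 8.4e-06) and -40.9 points in pregnant rats (adjusted p = 0.015).

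The other 4 clusters of that stretch gave nearly the same picture. The 4 lay at chr1:11910425-11910488, chr1:11910989-11911131 and chr1:11911710-11911779 on the plus strand and at chr1:11910047-11910116 on the minus strand. Of the 10 CpGs at chr1:11910989-11911131, only 2 were dense. Their differences were -47.7, -48.0, -49.7 and -42.1 points in non-pregnant rats and -53.4, -45.9, -48.7 and -44.8 points in pregnant rats. In each of the 5 clusters CD-P18 rat 2 was the highest of all rats and BN-P18 rat 2 the lowest. The same rats were the extremes of the cluster at chr14:46655621-46655690 (49.0 and 8.30%), which was not called (limma-moderated adjusted p = 0.34 and 1).

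Coverage at these sites was far above the typical cluster and differed between the strains. The first cluster had 927 reads per CpG, 40.6 times the median. Per 1000000 summed reads of a library, its coverage was 19.3 ± 6.73 (SD, n = 6) in CD and 34.3 ± 10.2 in BN rats. At chr1:11911710-11911779 it was 2.42 ± 1.65 in CD and 12.5 ± 4.96 in BN. The part of copy number, of repeated sequence or of reads that map to several places in these differences was not tested. Without CD-P18 replicate 2, the calls in pregnant rats fell from 7 to 3 clusters, and 4 of the 5 clusters on chromosome 1 were lost (adjusted p up to 0.48).

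The 2 clusters that were higher in BN differed greatly in depth. At chr19:56338855-56338937 (minus strand, 11 CpGs, about 1857 reads per CpG) the CD rats ranged from 3.63 to 15.4% and the BN rats from 23.3 to 32.9%, with differences of 19.6 points (limma-moderated adjusted p = 0.0024) and 20.4 points (adjusted p = 2.0e-05). Its coverage per 1000000 summed reads was 38.7 ± 11.4 (SD, n = 6) in CD and 68.3 ± 12.5 in BN rats, and the part of this in the difference was not tested. At chr14:79444881-79445068 (minus strand, 14 CpGs, of which 6 were dense), coverage was ordinary, at 28.6 reads per CpG, and it was alike in the strains (0.802 ± 0.0909 per 1000000 in CD and 0.855 ± 0.198 in BN, SD, n = 6). There the CD-NP rats were at 4.58, 3.17 and 0.990% and the CD-P18 rats at 4.10, 5.64 and 3.17%. The BN-NP rats were at 35.8, 33.0 and 42.7% and the BN-P18 rats at 46.4, 57.2 and 42.3%. The difference was 33.5 points in non-pregnant rats (adjusted p = 0.026) and 45.0 points in pregnant rats (adjusted p = 0.0029). Leaving out a rat took the first of these to an adjusted p of 0.067 to 0.15, so that the non-pregnant call rested on all 6 rats, while the second stayed at or below 0.028.

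**Figure D4:**
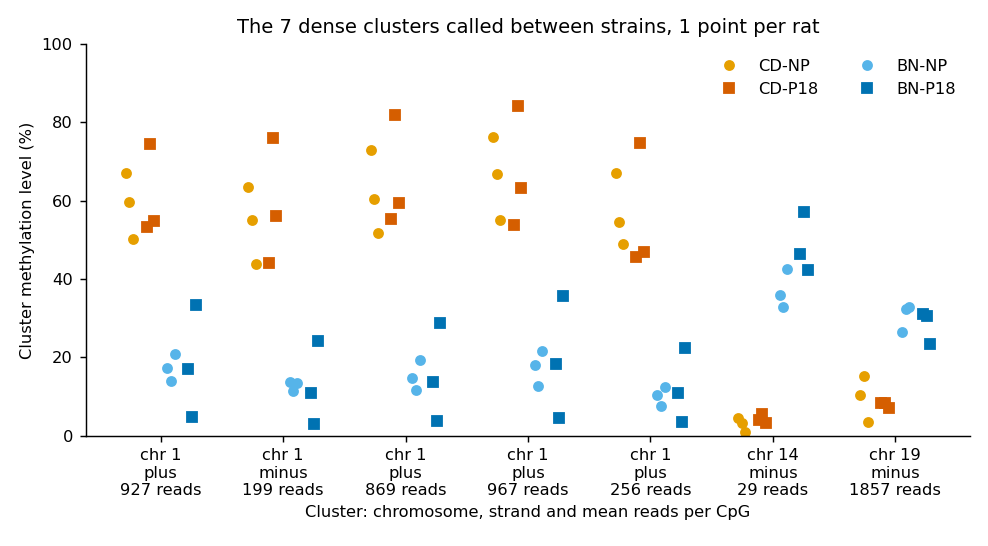
Methylation level (%, y axis) of the 7 dense clusters called between strains (x axis, labelled with chromosome, strand and mean reads per CpG), with 1 point per rat. CD rats stand above BN rats in the 5 clusters of chromosome 1 and below them in those of chromosomes 14 and 19, with no overlap in any of the 7.

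Calls were gathered in few clusters. The 145 calls in non-pregnant rats lay in 31 clusters and the 149 in pregnant rats in 32, with 22 clusters in common (71.0% and 68.8%). Clusters with 5 or more calls held 114 and 121 of them. Apart from those above, such clusters, named after their values were seen, included chr6:30631494-30631564 on the plus strand and chr6:30631530-30631572 on the minus strand. In the first the CD rats were at 2.59 to 8.49% and the BN rats at 7.50 to 33.6%, and in the second at 0.444 to 7.6% and 8.35 to 28.9%. At chr7:711839-711977 the CD rats were at 2.38 to 4.97% and the BN rats at 12.3 to 32.6%. At chr20:5375824-5375891 the ranges were 2.03 to 10.7% and 20 to 34.8%. At chr2:161565010-161565070 all 9 CpGs were called in non-pregnant rats and none in pregnant rats, with cluster differences of -33.0 and -15.4 points, and the CD rats were at 25.5 to 47.4% against 0.382 to 28.0% in BN. The plus strand cluster of chromosome 6 was among the 18 of high coverage, and its reads per CpG per 1000000 summed reads were 20.7 ± 6.32 (SD, n = 6) in CD and 10.9 ± 3.10 in BN rats. None of these passed the test as a whole cluster (limma-moderated adjusted p from 0.053 to 1). The most significant CpG of the cluster on chromosome 20, at chr20:5375877, was at 0 to 18.2% in CD and 35.0 to 68.0% in BN, on 11 to 59 reads.

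Other calls were single CpGs of their cluster. Clusters with only 1 called CpG numbered 13 in non-pregnant and 14 in pregnant rats. Of these, 8 and 10 were in clusters above 70%, where 6 and 8 of the called CpGs were higher in BN. The called CpGs differed by 16.2 to 93.8 points in non-pregnant and by 10.7 to 100 points in pregnant rats. In 9 of the 13 and 10 of the 14 clusters, every other CpG differed by less than 20 points. In 4 of the non-pregnant ones the other CpGs differed by a median of over 10 points, namely 24.3 points beside chr16:21294500, 19.4 beside chr7:123440471, 12.8 beside chr19:56339107 and 10.4 beside chr7:22454500.

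Steps between rats were seen at several of these CpGs. At chr14:87093952 the CD rats were at 0, 6.67, 0, 57.1, 94.1 and 0% and the BN rats at 90.5 to 100%, whereas no other CpG of the cluster differed between strains by more than 7.04 points. The strain difference there was 93.8 points in non-pregnant rats (limma-moderated adjusted p = 1.8e-18) and 48.4 points in pregnant rats (adjusted p = 0.012). At chr2:138525025 the CD rats were at 0, 54.5, 0, 53.3, 55.2 and 41.2% and the BN rats at 84.8 to 100%. At chr2:193573081, where coverage was 75 to 239 reads, all CD rats were at 58.0 to 68.9% and all BN rats at 95.2 to 97.7%. The opposite was seen at chr13:88536592, which was at 35.5 to 61.5% in CD and at 0% in all 6 BN rats, on 19 to 50 reads. Genotypes of these rats were not analysed here, and the part of variants in these steps was not tested.

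In 2 promoter clusters, chosen after their values were seen, strain calls formed a stretch of CpGs. Neither cluster was called as a whole at either stage, and close CpGs share reads, so their calls are not separate. As a whole cluster, Tra2b differed by -10.4 points in non-pregnant and by -8.66 points in pregnant rats. In the cluster of Tra2b, 9 CpGs from 10 bases before to 50 bases after the start were called at 1 stage or both, 8 in non-pregnant and 7 in pregnant rats. Over these 9 CpGs the CD-NP rats were at 28.8, 0 and 43.5% and the CD-P18 rats at 0, 19.8 and 27.8%. The BN rats were at 0 to 2.84%. Thus 4 of the CD rats stood above all BN rats, and 2 CD rats were at 0 as well. The 9 CpGs were picked by their calls at either stage, so these levels are no separate evidence of a difference. The 15 other CpGs of the cluster, one of them 5 bases before the start, were at 1.11% or below. The first of the 9 is the second last capital pair of the printed sequence, and the rest lie past its end.

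The cluster of Nudt21, which encodes a subunit of the complex that cleaves the ends of messenger RNAs, held such a stretch at a lower level and past its start. None of its 10 CpGs from 23 bases before to 36 bases after the start was called. Over 4 CpGs 67 to 106 bases after the start, the CD-NP rats were at 16.1, 13.2 and 17.99% and the CD-P18 rats at 14.8, 11.7 and 9.63%. BN rats were at 0% except for BN-P18 rat 3 at 2.17%. The 4 CpGs were called in non-pregnant rats (lowest limma-moderated adjusted p = 0.0041) and none in pregnant rats (lowest adjusted p = 0.21). They were picked by those calls, so their levels in the non-pregnant rats are no separate evidence of a difference. The CpGs 112 and 123 bases after the start, not called at either stage, were at 4.17 to 12.2% in CD rats and 0% in BN rats. In another cluster, paired with LOC134480539, the direction was opposite: over 2 CpGs called in non-pregnant rats the CD rats were at 0 to 1.99% and the BN rats at 4.65 to 16.7%. These 2 CpGs were also picked by their calls, with differences of 10.5 and 10.3 points, just over the threshold. Neither was called in pregnant rats (lowest limma-moderated adjusted p = 0.50). Whether the stages differed was tested for each CpG as described next, and no dense CpG passed.

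**Figure D5:**
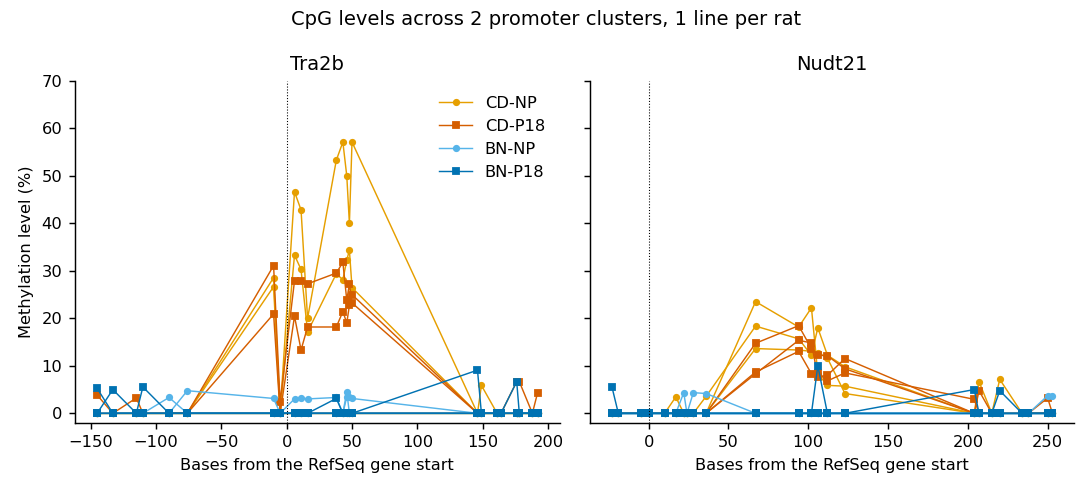
Methylation level (%, y axis) of each covered CpG against its distance from the RefSeq gene start (bases, x axis) in the clusters of Tra2b and Nudt21, with 1 line per rat and colours for the 4 groups. In Tra2b, 4 of the CD rats rise around the start, while no CpG of a BN rat exceeds 9.09% in that cluster.

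Lastly, the pregnancy change was compared between strains by an interaction term. It gave 0 dense CpGs, against 0.0052% of all CpGs tested, and 733 dense CpGs (1.68%, against 3.83% of all CpGs) had an unadjusted p under 0.05 by the limma-moderated test. No dense cluster was called either (lowest limma-moderated adjusted p = 1). The smallest p belonged to 3 CpGs within 2 kb of chromosome 7. At chr7:22454194 (minus strand) the CD-NP rats were at 25.8, 20.6 and 10.5% and the CD-P18 rats at 3.70, 6.67 and 4.51%. The BN-NP rats were at 3.77, 7.14 and 10.9% and the BN-P18 rats at 11.8, 16.7 and 30.8%. It changed by -14.4 points in CD and by 11.7 points in BN rats (limma-moderated adjusted p = 0.17 for the difference). The CpG at chr7:22454202 changed by -14.2 and 12.3 points (adjusted p = 0.18), and that at chr7:22453185 by -15.5 and 30.3 points (adjusted p = 0.33). The cluster of the first 2 had 3.02 ± 0.485 reads per CpG per 1000000 summed reads in CD and 1.21 ± 0.395 in BN rats (SD, n = 6).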

How the data were processed

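Kidney DNA of 12 rats was measured by RRBS (1 library per rat), and the matched RNA-seq table was not used here. Per the labels and the study's methods, the authors trimmed reads (Trim Galore 0.4.5), removed duplicates by molecular tags, aligned to Rnor_6.0 with Bismark and called CpGs with methylKit 1.16.1. The deposited files give, for each CpG and strand with at least 5 reads, its coverage (a read count) and percent C and percent T. Methylated reads were recovered as the rounded product of coverage and percent C, and all were whole within the rounding of the files. Rats carrying the same replicate number were different animals.

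Tested CpGs (10 or more reads in each library) were fitted by a logistic model with a quasi-likelihood dispersion, moderated across CpGs with limma 3.58.1 (R 4.3.3) and not below 1, with Benjamini-Hochberg adjustment over all CpGs or runs tested. On simulated data for CD-P18 against CD-NP (404069 CpGs), 83 of 200 changed CpGs were recovered with 1 false call, and 18 of 50 changed runs of 143803 with 0. The planted changes were of 1 fixed size, several times the 10-point threshold, with an assumed spread between rats. They were placed only at pooled levels of 10 to 90%, a range that held 3.54% of the dense CpGs. Recovery at the low levels of most dense CpGs was not simulated. P-values for CpGs rest on read counts and on a dispersion. At pooled levels of 10 to 90% the dispersion was pulled towards a value common to CpGs of like coverage, estimated in that range. At other levels, where most dense CpGs lie, it was the larger of that common value and the CpG's own dispersion. The degrees of freedom of the common value entered the test at all levels. The p-values therefore reflect a CpG's own spread between rats at most in part. The weight of the common value, in degrees of freedom, was 52.1 for pregnancy in CD rats and infinite in BN rats. Between strains it was 117 in non-pregnant and 52.2 in pregnant rats. With each CpG's own dispersion, 0 dense CpGs were called between strains at either stage. Clusters and CpGs were named by size, p, level and SD (5 clusters with most members, up to 5 called clusters and 3 called CpGs per comparison, 3 by interaction, 3 intermediate, 3 above 90% and 3 by SD); others are stated as chosen later. The members and lists were chosen with earlier results of these data known. RefSeq tables were of GRCr8, so no coordinate was converted and genes at Rnor_6.0 positions were not annotated. Read backwards, the spacing of 31 clusters also matched a window on their chromosome; these were not used. Alternatives covered the coverage minimum, dispersion, difference, neighbour rule, joining gap, highest coverages, replicate block and leaving out each rat.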

Additional observations from a re-analysis of the deposited data

How the results depend on the processing

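Of 121 counts under other settings, 89 stayed within 1.5 times the reported count, where a count of 0 that stayed 0 was included. Such zeros made up every alternative for pregnancy in BN rats and for clusters by pregnancy in CD rats. The 89 therefore overstate how steady the other counts were. Dense CpGs called between strains (145 in non-pregnant and 149 in pregnant rats) became 84 and 77 with a minimum of 20 reads, 300 and 282 with a minimum of 5, 47 and 55 with 12 neighbours, 268 and 263 with 5 neighbours within 50 bases, 60 and 72 (31 and 59 higher in BN) without the CpGs of highest coverage, 0 and 0 with each CpG's own dispersion (limma's moderation left out; 236 and 278 at an unadjusted p under 0.05), and 74 and 79 without the 18 clusters of highest coverage, an alternative chosen after seeing the data. Without 1 rat they ranged from 101 to 150 and from 105 to 128. The single pregnancy call in CD rats became 0 with 20 reads, 12 with 5 reads, 28 without overdispersion, 0 with own dispersion, 0 with 12 neighbours, 15 with 5 neighbours within 50 bases, 2 without the highest coverages, and 0 to 1 without 1 rat; BN rats gave 0 in all of them. Called clusters became 22 and 24 with reads summed, 15 and 15 without overdispersion and 11 in pregnant rats when joined over 50 bases; without 1 rat they were 6 to 7 and 3 to 8. The interaction count of 0 became 19 without overdispersion and 0 to 4 without 1 rat, the 4 arising without CD-NP replicate 3. The causes of these shifts were not tested, apart from the number of CpGs tested in the coverage and neighbour settings (842 dense CpGs at 20 reads and 253894 at 5).

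The mean level of dense CpGs in CD-NP, CD-P18, BN-NP and BN-P18 became 5.59, 5.20, 5.03 and 5.64% for pooled reads, 12.5, 11.6, 9.38 and 9.89% with 20 reads, 1.79, 1.62, 1.60 and 1.67% with 12 neighbours, and 7.44, 7.24, 7.42 and 7.47% with 5 neighbours within 50 bases. Without 1 rat it ranged from 3.18 to 3.29, 3.01 to 3.07, 3.10 to 3.17 and 3.18 to 3.21%.

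Replicate numbers did not pair the rats: deviations of same-numbered rats from their group means correlated at -0.017 to 0.025. With the replicate block, 26 and 6 dense CpGs were called between strains, 1 and 0 by pregnancy, and 6 and 7 clusters between strains. The pregnancy call under the block was higher in CD-P18, so it was another CpG than the reported call, which was lower and was lost. The median coverage of dense CpGs was 22 reads. On data simulated for CD-P18 against CD-NP (404069 CpGs), 83 of 200 CpGs changed at pooled levels of 10 to 90% were recovered. Recovery at other levels or by size of difference was not tested.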

Other observations

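The X chromosome was left out of the dense CpGs by definition. On it, 601 of 7900 tested CpGs met the same coverage and neighbour rule, and their mean level was 31.3%, between 28.4 and 34.7% in single rats, against 3.15% for the autosomal dense CpGs. Of the 601, 537 (89.4%) lay between 10 and 90%, against 3.54% of the autosomal ones. All 12 rats were female.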
